A study of Rattus norvegicus with 16 samples.

Results

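The Cyp2c family of cytochrome P450 genes was followed through the livers of weanling rats whose dams had received a mixture of environmental contaminants. Its members were the 8 rat genes Cyp2c7, Cyp2c11, Cyp2c6v1, Cyp2c12, Cyp2c13, Cyp2c22, Cyp2c23 and Cyp2c24, found by matching the RefSeq identifiers of the array's non-control probes to these symbols. That gave 9 of 30367 probes, 3 for Cyp2c7 and 1 each for Cyp2c11, Cyp2c6v1, Cyp2c12, Cyp2c13, Cyp2c22 and Cyp2c23. Cyp2c24 was not analysed here. The probe of Cyp2c13 was too dim to be tested, so 6 of the 8 genes were tested among 12072. In all, the array held probes for 26913 distinct genes and unnamed transcripts.

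The samples were 16 liver RNA pools of male Sprague-Dawley pups at 21 days of age, each of 2 pups, hybridised to 16 Agilent arrays with 4 arrays per group. In group M the pups stayed with their own dams, which were given organochlorine pesticides, polychlorinated biphenyls and methyl mercury in corn oil at 1 mg/kg/day, and in group C they stayed with their own dams on corn oil alone. In group MM the pups of mixture dams were raised from birth by other mixture dams, and in group CC the pups of corn oil dams by other corn oil dams. The liver RNA was labelled with Cy5, and a universal reference RNA from 14 rat cell lines was labelled with Cy3 throughout. Dyes were not swapped. The labels do not give the litter of a pool, so p-values measure the spread between pools. All M and MM arrays lay on slide 2 and all C and CC arrays on slide 1, so the mixture and the slide cannot be told apart, whereas MM against M and CC against C were compared within a slide.

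Cyp2c enzymes sit in the endoplasmic reticulum of hepatocytes, take electrons from the P450 reductase Por and cytochrome b5, and hydroxylate steroids, retinoids, fatty acids and drugs. In rats several of them are sex-specific in adult liver, set by the male or female pattern of growth hormone release that is established at puberty. Others are induced by phenobarbital-type chemicals through the nuclear receptors Car and Pxr.

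The 8 genes lie on chromosome 1 of the GRCr8 assembly, in the order Cyp2c11, Cyp2c24, Cyp2c6v1, Cyp2c7, Cyp2c12, Cyp2c13, Cyp2c22 and Cyp2c23, among 17 Cyp2c genes and pseudogenes of the RefSeq table. The promoters of Cyp2c7 and Cyp2c11, the members called higher in the ratio, and of Cyp2c12, which shares an element with Cyp2c7 and was not called, are printed from RefSeq (build GRCr8), from 250 bases before to 50 bases after the start. They lie at chr1:247966144-247966443 (plus strand), chr1:246174966-246175265 (plus strand) and chr1:248676985-248677284 (minus strand). Capitals mark matches to CAAAGNNCA, the element through which Hnf4a is known to act on Cyp2c promoters, and to the TATA box TATAAA, each searched on both strands.
Cyp2c7: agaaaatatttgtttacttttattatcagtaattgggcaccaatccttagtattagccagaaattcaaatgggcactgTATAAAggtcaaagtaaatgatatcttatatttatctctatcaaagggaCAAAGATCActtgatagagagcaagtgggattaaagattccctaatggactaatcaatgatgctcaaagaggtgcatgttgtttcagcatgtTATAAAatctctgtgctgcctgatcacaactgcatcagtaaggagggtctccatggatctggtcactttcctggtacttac
Cyp2c11: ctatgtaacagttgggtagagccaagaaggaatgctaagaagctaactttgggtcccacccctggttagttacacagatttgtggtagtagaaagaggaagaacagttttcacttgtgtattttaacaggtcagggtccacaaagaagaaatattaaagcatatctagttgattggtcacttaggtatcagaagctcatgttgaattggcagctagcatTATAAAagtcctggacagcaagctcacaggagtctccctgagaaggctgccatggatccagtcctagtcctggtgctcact
Cyp2c12: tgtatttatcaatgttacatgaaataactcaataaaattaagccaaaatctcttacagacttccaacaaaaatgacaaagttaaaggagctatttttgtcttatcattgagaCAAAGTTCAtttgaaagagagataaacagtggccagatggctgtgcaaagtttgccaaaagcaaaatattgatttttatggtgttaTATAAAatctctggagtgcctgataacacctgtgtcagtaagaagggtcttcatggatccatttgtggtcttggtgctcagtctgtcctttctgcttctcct
Of the 7 members with a promoter in the table, all but Cyp2c6v1, 3 held CAAAGNNCA, at -123 in Cyp2c7, -138 in Cyp2c12 and -127 in Cyp2c13, against 6.1% of 33469 promoters of the same length. TATAAA was found in 6 of the 7, all but Cyp2c23, against 14.2% of promoters. It lay at -31 in Cyp2c7 and Cyp2c11, -52 in Cyp2c12, -41 in Cyp2c13 and -29 in Cyp2c24. In Cyp2c22 the only match lay far from the start, at -197. Cyp2c7 and Cyp2c13 held a further match at -172 and, on the minus strand, at -170. The nuclear receptor hexamer AGGTCA was found in Cyp2c7, Cyp2c11 and Cyp2c22, against 16.2% of promoters, and in Cyp2c7 it overlaps the distal TATAAA by 1 base. The STAT element TTCNNNGAA was found in none of the 7, against 8.9% of promoters. After alignment with gaps, the most alike promoters were those of Cyp2c12 and Cyp2c13, identical at 74.7% of bases. Next were Cyp2c11 and Cyp2c24 at 73.7%, and Cyp2c7 and Cyp2c12 at 67.3%. The least alike pair, Cyp2c7 and Cyp2c23, was still identical at 54.7%. Whether the members' probes also bind transcripts of their close relatives was not tested.

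The files describe liver throughout: all 9 hepatocyte markers, albumin among them, were well above background on all 16 arrays. Other markers were uneven in the CC group. The summed Cy5 intensity of 6 skeletal muscle markers was 9793 to 11286 on CC 1 and CC 2, against 137 to 352 on the other 14 arrays, and that of 6 exocrine pancreas markers was 2420 to 6429 on CC 1 and CC 2, 557 to 1100 on M 6 and MM 1, and 26.8 to 118 on the other 12. The part of these transcripts in the Cyp2c values was not tested, but comparisons with CC are also given without CC 1 and CC 2. In liver tissue, fewer cells of a type and less RNA per cell cannot be told apart.

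Cyp2c7, a retinoic acid hydroxylase that is more abundant in adult females, was the member with the largest rise in mixture-exposed pups. Its Cy5 intensity was 8656, 10340, 9538 and 9685 on the M arrays, against 778, 338.5, 658.8 and 840.8 on the C arrays. In cross-fostered pups it was 5771, 5551, 2189 and 7963 on the MM arrays, against 439, 388.3, 568.5 and 319.5 on the CC arrays. Every M array lay above every C array, and every MM array above every CC array, with MM 3 the lowest of the exposed arrays and C 10 and CC 4 the lowest of the others. In Cy5 alone, 5.53% of all genes had M wholly above C and 5.00% had MM wholly above CC. The log2 ratio of Cy5 over Cy3 averaged 5.86 ± 0.15 in M and 3.52 ± 0.61 in C (SD, n = 4 each). It averaged 5.58 ± 0.48 in MM and 2.87 ± 0.35 in CC. The difference was 2.34 ± 0.27 (SE) on the log2 scale for M minus C, 5.08-fold (limma adjusted p = 2.44e-05), and 2.72 ± 0.27 for MM minus CC, 6.58-fold (adjusted p = 7.83e-06). Without CC 1 and CC 2 the MM minus CC difference was 2.62. With the scanner software's own log ratio the M minus C difference was 1.45, still called.

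A ratio depends on the reference channel too, so each channel was also fitted alone, after loess normalization and Aquantile scaling, which gives the arrays 1 common distribution of mean intensity. In Cy5 alone the fold of Cyp2c7 was 15.2 for M over C (95% interval 9.76 to 23.6, adjusted p = 1.01e-06) and 13.4 for MM over CC (8.64 to 20.9, adjusted p = 2.13e-06). The Cy3 intensity of its probe, which should carry reference RNA alone, was 461, 409, 470 and 464 on the M arrays, against 134, 113, 118 and 126 on the C arrays. It was 315, 291, 260 and 357 on the MM arrays, against 146, 125, 123 and 117 on the CC arrays. Every array of slide 2 lay above every array of slide 1 in this reference signal, and the share of all genes so separated was not counted. Calls in Cy3 alone were common, with 38.4% of all genes called higher between M and C and 40.5% between MM and CC. In Cy3 alone the differences were 2.99-fold for M over C and 2.04-fold for MM over CC, so the ratio gave a smaller difference than Cy5 alone.

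Cyp2c6v1, the phenobarbital-inducible Cyp2c of both sexes, was called higher in each channel and was not called in the ratio. Its Cy5 intensity was 30869, 51157, 39406 and 43584 on the M arrays, against 13144, 10748, 10006 and 13609 on the C arrays. It was 40556, 45361, 22858 and 36083 on the MM arrays, against 9490, 11894, 12607 and 9355 on the CC arrays. All 8 exposed arrays lay above all 8 unexposed arrays, on a probe with 1 spot per array. The share of all genes so separated over both pairs was not counted. For single pairs in Cy5 alone, 5.53% of all genes had M wholly above C and 5.00% had MM wholly above CC. In Cy5 alone the fold of Cyp2c6v1 was 3.39 for M over C (95% interval 2.81 to 4.10, adjusted p = 5.79e-07) and 3.71 for MM over CC (3.07 to 4.48, adjusted p = 2.44e-07). Without CC 1 and CC 2 the log2 difference of MM minus CC in Cy5 was 1.78, against 1.89 with them. Its Cy3 intensity moved alike: it was 415.5 to 535 on the 8 arrays of slide 2 and 101.5 to 170 on the 8 arrays of slide 1. In Cy3 alone that was 3.32-fold for M over C and 3.11-fold for MM over CC. The log2 ratio had a mean of 7.80 ± 0.08 in M and 7.77 ± 0.18 in C, and of 7.84 ± 0.37 in MM and 7.58 ± 0.39 in CC (SD, n = 4 each). The ratio differed by 0.03 ± 0.18 (SE; 95% interval -0.35 to 0.42, adjusted p = 0.929) for M minus C and by 0.25 ± 0.18 (-0.13 to 0.64, adjusted p = 0.352) for MM minus CC. With the scanner software's own log ratio the M minus C difference was -0.91 (adjusted p = 0.00386), and with a background offset of 16 it was -0.26, not called, so the direction of this ratio depended on the processing.

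**Figure D1:**
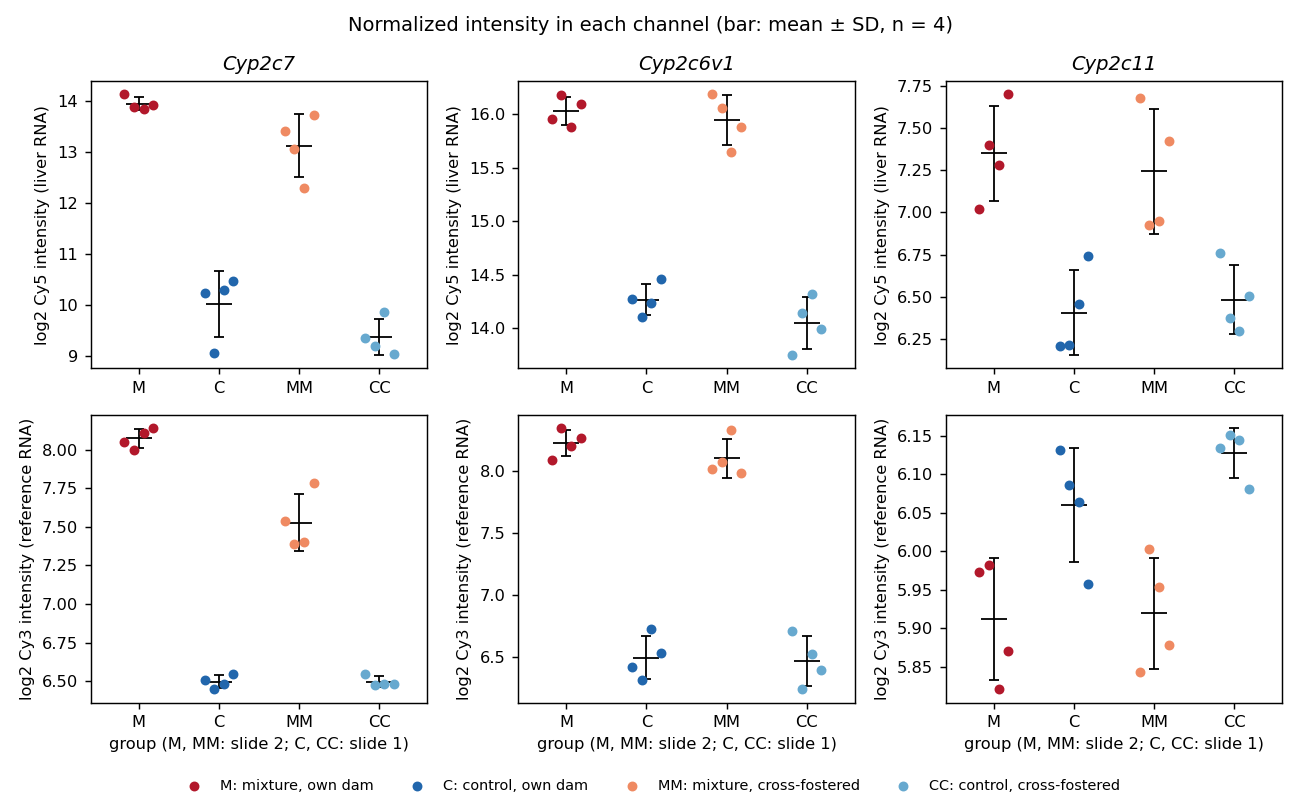
Log2 normalized intensity in Cy5 (upper row, liver RNA) and Cy3 (lower row, reference RNA) for Cyp2c7, Cyp2c6v1 and Cyp2c11, with 1 point per array and bars at the mean ± SD of 4 arrays. For Cyp2c7 and Cyp2c6v1 both channels were higher on the M and MM arrays than on the C and CC arrays, and for Cyp2c11 the normalized group means were higher in Cy5 and lower in Cy3, where most arrays were not well above background.

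The shift of the reference signal between slides was unusual in size for Cyp2c6v1 and Cyp2c7. Among 12070 genes with a value on every array, the Cy3 difference of slide 2 minus slide 1 had a median of 0.04 on the log2 scale, with the 5th percentile at -0.37 and the 95th at 0.40. It was 1.68 for Cyp2c6v1, rank 3 from the top, and 1.31 for Cyp2c7, rank 6. The gene with the largest shift, at 2.32, was another hepatic P450, Cyp1a2, whose Cy5 shift was 2.33. The other 4 tested members moved by -0.18 (Cyp2c11), -0.11 (Cyp2c23), -0.03 (Cyp2c12) and 0.02 (Cyp2c22) in Cy3. Within slide 2, which holds M and MM, the log2 Cy3 and Cy5 intensities of Cyp2c7 correlated at r = 0.87 over 8 arrays. Within slide 1 their r was 0.29. For Cyp2c6v1 it was 0.17 on slide 2 and -0.28 on slide 1, and no other tested member exceeded 0.47 on either slide. What raised the reference signal was not tested.

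Cyp2c11, the male-specific steroid hydroxylase that is switched on at puberty, was near background in these prepubertal males, with higher Cy5 intensity on the exposed arrays. Its Cy5 intensity was 112.5, 144.5, 134 and 168.3 on the M arrays, against 78.8, 83, 86 and 103.5 on the C arrays. It was 157, 115.8, 109 and 140.5 on the MM arrays, against 101.3, 83.5, 82.3 and 90.5 on the CC arrays. The groups did not overlap in either pair. In Cy5 alone 5.53% of all genes had M wholly above C and 5.00% had MM wholly above CC. The groups did not overlap in the ratio either, where these shares were 9.73% and 8.68%. The median Cy5 background of an array was itself 67 to 73. The probe was well above background on 4 of 4 M and 4 of 4 MM arrays, against 1 of 4 C and 1 of 4 CC arrays, so the gene entered the tests only through the exposed groups, where it was high. Its differences are set against unexposed groups that lay mostly at background, and no fold is given. Its p-values and calls carry that selection and are given as description only. The log2 ratio differed by 1.09 ± 0.21 (SE) for M minus C (adjusted p = 0.0018) and by 0.97 ± 0.21 for MM minus CC (adjusted p = 0.00446). In Cy5 alone the log2 differences were 0.94 (adjusted p = 0.00864) and 0.76 (adjusted p = 0.0305). Its normalized Cy3 differences were -0.15 and -0.21, but both Cy3 spots were well above background on only 1 M, 0 MM, 0 C and 1 CC arrays. The Cy3 intensity before normalization averaged 51.1 in M and 44.1 in C. The scanner's own ratio gave 2.57 and 2.90, and with median centring in place of loess the M minus C difference was 0.68, all called. In Cy5 alone the MM against CC call was lost without CC 2, CC 3, CC 4, MM 1 or MM 4, with log2 differences of 0.72, 0.70, 0.77, 0.61 and 0.70 in that order, and at 0.84 without both CC 1 and CC 2. On the arrays of row 1 alone, 2 per group, the ratio differences were 1.13 and 0.96 but missed the threshold (adjusted p = 0.0518 and 0.09).

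Cyp2c12, the female-specific steroid sulfate hydroxylase of adult liver, was well above background in all these male pups and varied widely among pools. Its log2 ratio was 5.75, 6.01, 6.01 and 7.10 on the M arrays, against 5.12, 5.33, 5.24 and 6.60 on the C arrays. It was 6.42, 5.03, 5.97 and 6.96 on the MM arrays, against 5.98, 6.01, 6.38 and 5.70 on the CC arrays. The Cy3 intensity of its probe was 31.75 to 47 on slide 1 and 34 to 42.25 on slide 2, mostly not well above background. Its ratio thus rests on a reference signal near background. Pools M 8 and C 12 stood above the other 3 of their groups, and the groups overlapped in both pairs. The difference was 0.65 ± 0.39 (SE; 95% interval -0.18 to 1.47, adjusted p = 0.263) for M minus C and 0.08 ± 0.39 (-0.75 to 0.90, adjusted p = 0.915) for MM minus CC. These intervals leave room for changes of over 1.5-fold, so the 2 differences do not show that the gene was alike in exposed and unexposed pups. In Cy5 alone the differences were 0.63 (limma adjusted p = 0.452) and 0.03 (adjusted p = 0.982), also without a call.

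Cyp2c13, a male-specific steroid hydroxylase, could not be tested. Its probe was well above background on 1 of 4 M, 0 of 4 MM, 1 of 4 C and 1 of 4 CC arrays, with Cy5 intensities of 78 to 127 over all 16. Its highest ratios in groups M and C, 0.85 and 1.29, were on M 8 and C 12, the same pools that were highest in Cyp2c12 and in Cyp2c11. The other groups did not share a highest pool over these genes. In CC it was CC 1 for Cyp2c13 and Cyp2c11 but CC 3 for Cyp2c12. In MM it was MM 4 for Cyp2c13 and Cyp2c12 but MM 1 for Cyp2c11.

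That pools high in Cyp2c12 tended to be high in Cyp2c11 was examined over the 16 arrays, as deviations from each group's mean ratio. Pearson's r was 0.74 (p = 0.0117 by permutation within groups) and Spearman's rho 0.69 (p = 0.00962 by the same permutation test), the highest of 15 pairs of tested members. Adjusted over the 15 pairs by the Benjamini-Hochberg method, the permutation p was 0.176 for r and 0.144 for rho, so the relation did not pass. Pearson's r was 0.68 without the 2 arrays farthest from the median of Cyp2c11, and 0.83 and 0.67 within array rows 1 and 2. Cyp2c11 was well above background on only 1 C and 1 CC array, so its deviations in these groups are mostly of a signal at background.

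**Figure D2:**
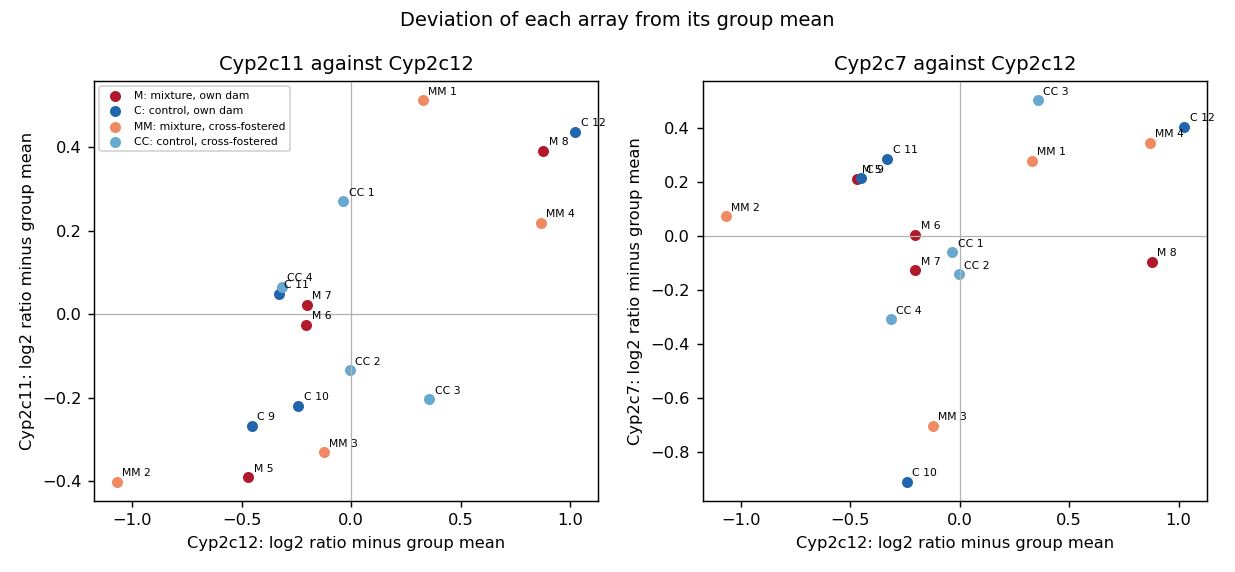
Deviation of each array's log2 ratio from its group mean, for Cyp2c11 (left) and Cyp2c7 (right) against Cyp2c12, with 1 point per array. MM 4, M 8 and C 12 lie at the right of both panels with high Cyp2c12, and in the left panel they also lie high in Cyp2c11.

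Cyp2c22, another retinoic acid hydroxylase, and Cyp2c23, an arachidonic acid epoxygenase, were not called between exposed and unexposed pups. For Cyp2c22 the log2 ratio was 2.19, 2.88, 1.95 and 2.23 on the M arrays, against 2.27, 2.53, 1.90 and 2.67 on the C arrays. It was 1.97, 2.14, 1.15 and 1.68 on the MM arrays, against 2.24, 2.24, 1.90 and 1.66 on the CC arrays. The groups overlapped in both pairs, with differences of -0.03 ± 0.23 (SE; 95% interval -0.52 to 0.46, adjusted p = 0.946) for M minus C and -0.27 ± 0.23 (-0.76 to 0.21, adjusted p = 0.435) for MM minus CC. The Cy3 intensity of Cyp2c22 was 37.5 to 49.5 on slide 1 and 41.75 to 49.5 on slide 2, mostly not well above background. In Cy5 alone its differences were -0.05 (limma adjusted p = 0.935) and -0.22 (adjusted p = 0.604). For Cyp2c23, measured on 10 spots per array, the ratio differed by 0.04 ± 0.16 (-0.31 to 0.38, adjusted p = 0.906) for M minus C and by 0.14 ± 0.16 (-0.20 to 0.49, adjusted p = 0.582) for MM minus CC. Its intervals exclude a change of 1.5-fold in either direction. Its Cy5 intensity was 18669 to 23020 in M and 14175 to 25109 in MM, against 18015 to 28174 in C and 21830 to 25061 in CC. Array CC 1 stood apart in its Cy3 intensity for Cyp2c23, 1670 against 860 to 1093 on the other 15 arrays, and had the lowest ratio, 5.23. CC 1 also had the highest Cy3 intensity of slide 1 for Cyp2c6v1 (170), Cyp2c7 (146.25), Cyp2c11 (59.75) and Cyp2c12 (47). This was not so for Cyp2c22 and Cyp2c13. The ratio of Cyp2c6v1 was also lowest on CC 1, at 7.03.

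**Figure D3:**
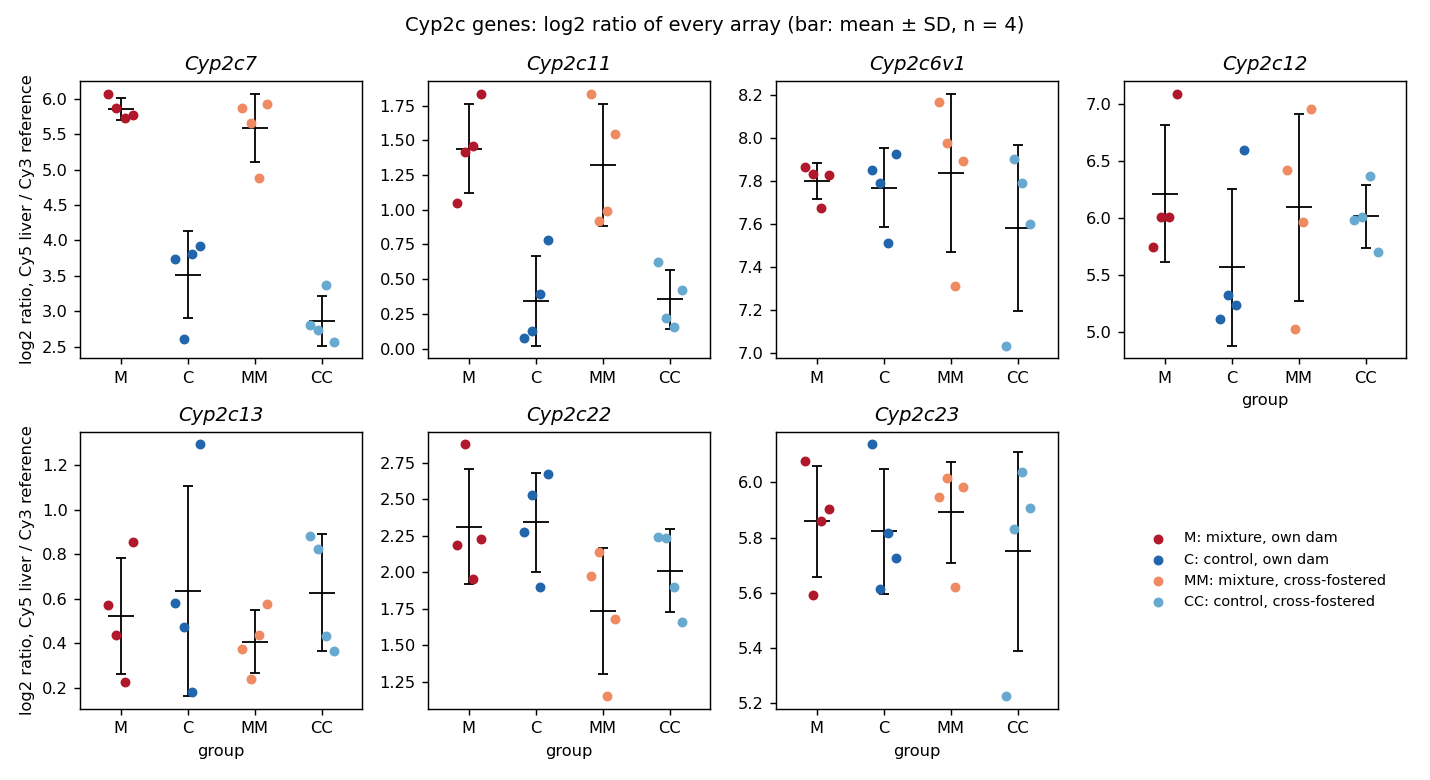
Log2 ratio of Cy5 (liver) over Cy3 (reference) for the 7 genes with a probe, 1 point per array, with bars at the mean ± SD of 4 arrays and the groups in the order M, C, MM and CC. Only Cyp2c7 and Cyp2c11 have exposed groups wholly above their unexposed counterparts, and levels of different genes cannot be compared because each has its own probe. Cyp2c11 lay mostly at background in C and CC.

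Counted over the family, 2 of the 6 tested genes were called in the ratio between M and C, both higher, where 20.4% of all genes were called and 8.19% were called higher. The same 2 genes were called higher between MM and CC, where 20.0% of genes were called and 7.83% higher. In Cy5 alone 3 members were called higher in each comparison, with Cyp2c6v1 the addition, where 3.26% of genes were called and 2.14% called higher between M and C, and 2.86% and 2.15% between MM and CC. The median difference over the 6 was 0.34 in the ratio for M minus C and 0.20 for MM minus CC, against -0.05 and -0.06 over all genes. In Cy5 alone the medians over the 6 were 0.79 and 0.40, against -0.02 and -0.03 over all genes. These counts and medians leave out Cyp2c13 and Cyp2c24 and include Cyp2c11, which passed the filter only where it was high, so they describe the tested genes alone. In Cy3 alone 3 members were called in each comparison, Cyp2c7 and Cyp2c6v1 higher and Cyp2c11, which was mostly not well above background there, lower. The calls in that channel covered 65.5% of genes for M against C, with 38.4% higher and 27.1% lower, and 66.5% for MM against CC, with 40.5% higher and 26.1% lower.

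The comparison of pups raised by other dams with pups kept by their own asks what cross-fostering changed, and it lay within a slide. No member was called in the ratio or in Cy5 alone, with or without the mixture, where 0% of the 12072 genes were called. At an unadjusted limma p below 0.05, 336 genes were called in the ratio between CC and C and 275 between MM and M, with 1 member in each. The member was Cyp2c7 between CC and C, at -0.65 ± 0.27 (SE; unadjusted p = 0.0289, adjusted p = 1.0), and Cyp2c22 between MM and M, at -0.58 ± 0.23 (unadjusted p = 0.0237, adjusted p = 0.999). In both cases the arrays of the groups overlapped. The interaction of exposure and cross-fostering called 0 genes, with 349 at an unadjusted p below 0.05 and no member among them, and for Cyp2c7 it was 0.37 ± 0.38 (95% interval -0.44 to 1.19). It was -0.12 ± 0.30 for Cyp2c11 and 0.22 ± 0.26 for Cyp2c6v1. In Cy5 alone 278 genes between CC and C and 266 between MM and M had an unadjusted p below 0.05, with 1 and 2 members among them.

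Within slide 2 the brightest probe of Cyp2c7 stood lower in cross-fostered pups in both channels. In Cy5 alone the log2 level was 13.40, 13.05, 12.28 and 13.72 on the MM arrays, against 14.13, 13.87, 13.84 and 13.90 on the M arrays. In Cy3 alone it was 7.54, 7.39, 7.40 and 7.78 on the MM arrays, against 8.05, 8.0, 8.11 and 8.14 on the M arrays. For this probe the groups overlapped in neither channel, as was true downward of 0.597% of genes in Cy5 and 0.837% in Cy3. The Cy5 difference was -0.82 ± 0.30 (SE; unadjusted p = 0.0146, adjusted p = 1.0). The Cy3 difference was -0.55 ± 0.064 (adjusted p = 0.00235), and it was the 1 call among 12072 genes (0.00828%) in the reference channel between MM and M. Array MM 4 was highest of the MM arrays and MM 3 lowest in the Cy5 intensity, and the same held in the Cy3 intensity. The ratio differed by -0.28 ± 0.27 (adjusted p = 0.999). The separation did not hold in both channels for the gene's other probes. For A_64_P000452 the groups overlapped in Cy5, with MM 4 at 12.68 above M 5 at 12.51. For A_64_P066206 they overlapped in Cy3, with MM 3 at 5.47 above M 7 at 5.37. The Cy5 differences of these probes were -0.83 ± 0.32 and -1.03 ± 0.33, without a call.

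**Figure D4:**
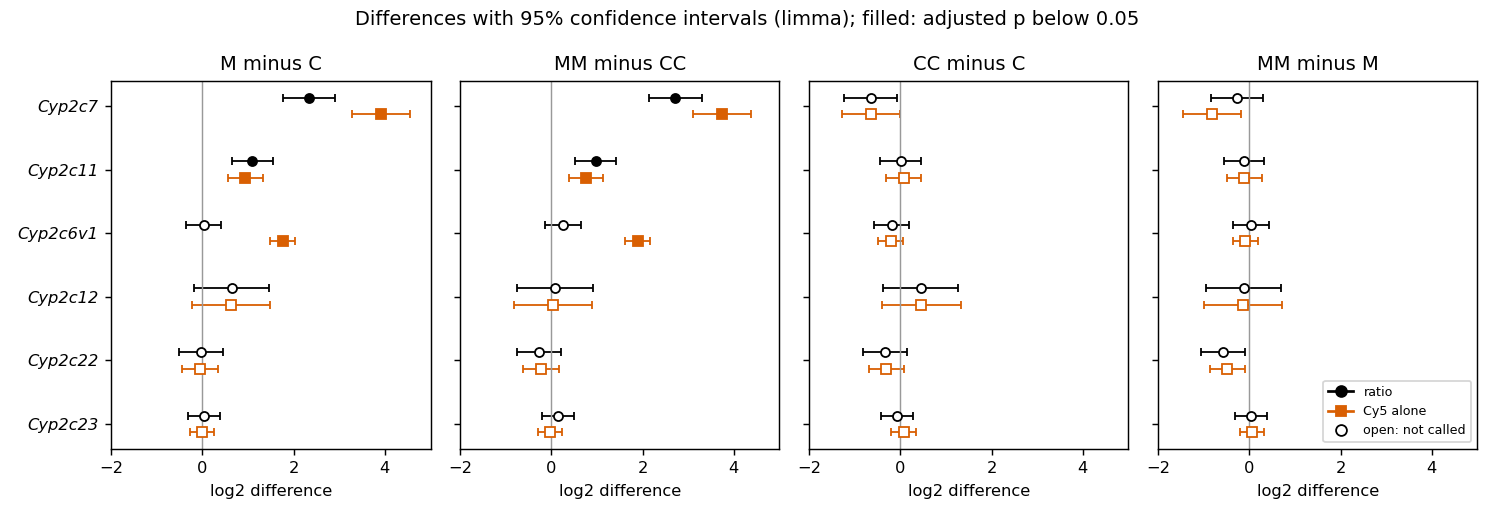
Log2 differences of the 6 tested genes in 4 comparisons, in the ratio (circles) and in Cy5 alone (squares), with 95% confidence intervals. Filled symbols have an adjusted p below 0.05, which holds for Cyp2c7 and Cyp2c11 in both measures and for Cyp2c6v1 in Cy5 alone, and for no gene in the 2 cross-fostering comparisons. Cyp2c11 entered the tests only through the exposed groups, where it was high, and lay mostly at background in C and CC.

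All 3 probes of Cyp2c7 were called higher in exposed pups, but their ratios disagreed on the size. The ratio difference of M minus C was 2.34 ± 0.27 (SE) for A_43_P13939, which stands for the gene, 3.25 ± 0.31 for A_64_P000452 and 3.90 ± 0.37 for A_64_P066206. For MM minus CC it was 2.72, 3.39 and 3.70 in the same order. In Cy5 alone the M minus C differences were closer to each other, at 3.92, 4.07 and 3.63. The reference signal separated the probes: the group means of log2 Cy3 were 8.08 in M and 6.50 in C for A_43_P13939, 6.65 in M and 5.84 in C for A_64_P000452, and 5.47 in M and 5.74 in C for A_64_P066206. The Cy3 signal of A_64_P066206 was well above background on 3 M, 1 MM, 0 C and 0 CC arrays, and its intensity before normalization averaged 53.8 in M and 42.2 in C, so the lower normalized level in M is not a measured fall and its ratio rests on a signal at background. In fold terms the ratio gave 5.08 for A_43_P13939 and 9.55 for A_64_P000452. The folds of M over C in Cy5 alone, where each of the 3 probes was well above background on all 16 arrays, were 15.2, 16.8 and 12.4.

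**Figure D5:**
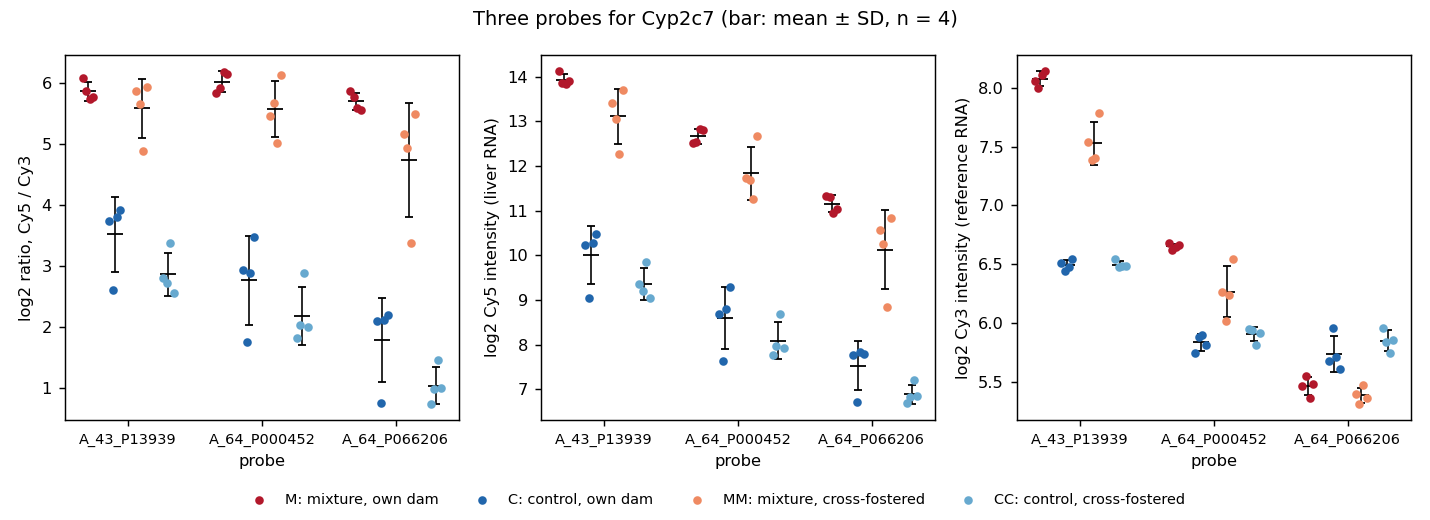
The 3 probes of Cyp2c7 in the ratio (left), Cy5 alone (middle) and Cy3 alone (right), 1 point per array with bars at the mean ± SD of 4 arrays, in the order M, C, MM and CC within a probe. Cy5 lies higher in M and MM for each probe, whereas in Cy3 A_43_P13939 and A_64_P000452 lie higher in M and MM and A_64_P066206, mostly not well above background in Cy3, lies lower after normalization, and levels of different probes cannot be compared.

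The genes whose ratio followed Cyp2c7 most closely over the 16 arrays were Txndc12, Ceacam4, Ddx20, Jak1 and Cyb5a, with Pearson's r of 0.95, 0.95, 0.95, 0.95 and 0.94. In Cy5 alone only Ceacam4 and Cyb5a kept a high r, both at 0.97, while Txndc12 was at 0.47, Jak1 at -0.45 and Ddx20 at -0.67. For Cyp2c11 they were Dis3l2, Nfs1, Atxn7l3b, Ldah and Mal2, with r of 0.93, 0.93, 0.92, 0.92 and 0.92, and with r of -0.49, 0.63, 0.37, 0.66 and 0.56 in Cy5 alone. These values describe likeness over arrays that share the slide split.

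Several genes of a list for P450 electron transfer and heme supply rose in the ratio, and 1 of them also in Cy5 alone. Of 13 tested genes of electron transfer and heme supply, 8 rose and none fell in M against C, and 4 rose and none fell in MM against CC, with list medians of 0.37 and 0.22 against -0.05 and -0.06 over all genes. Of all genes 8.19% and 7.83% rose in the ratio in these comparisons. In Cy5 alone 1 gene of the list rose in each, with list medians of 0.09 and 0.13, where 2.14% and 2.15% of all genes rose. Cyb5a, which encodes the cytochrome b5 that donates electrons to P450 enzymes, rose by 0.68 ± 0.07 (SE, log2; adjusted p = 1.31e-05) in M. In Cy5 alone it rose by 0.92 (adjusted p = 1.01e-06), and it was the only gene of this list called there in either comparison. Its partner reductase Cyb5r3 rose by 0.66 in the ratio and was at 0.34 in Cy5 alone without a call. The list also holds the heme oxygenase Hmox1, which breaks heme down and does not supply it. Hmox1 rose by 0.50 in the ratio and was at -0.10 in Cy5 alone without a call. Por rose by 0.85 in M and 0.97 in MM, with 0.35 and 0.54 in Cy5 alone without a call.

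Among 21 tested P450 genes of families 1 to 3 outside the Cyp2c family, 6 rose and none fell in the ratio in each comparison, with medians of 0.04 and 0.08, where 8.19% and 7.83% of all genes rose. In Cy5 alone 8 rose in M and 7 in MM and none fell, with medians of 0.21 and 0.05, where 2.14% and 2.15% of all genes rose. Those that rose in the ratio included Cyp1a1, a target of the aryl hydrocarbon receptor, at 5.29 ± 0.27 (SE, log2), Cyp2b2, the phenobarbital-type target of Car, at 2.76 ± 0.20, and Cyp1b1 at 1.52 ± 0.12 in M against C. Of 13 retinoid genes, the substrate pathway of Cyp2c7 and Cyp2c22, 2 rose in M and 1 in MM. The retinal dehydrogenase Aldh1a1 rose by 1.69 ± 0.26 in M (adjusted p = 0.000385) and by 1.69 in MM, and by 1.78 and 1.76 in Cy5 alone. Dhrs3, a retinal reductase, rose by 0.38 ± 0.10 in M and was at 0.21 in MM, with no call in Cy5 alone.

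Of 14 eicosanoid and epoxide genes, 1 rose in each comparison, where 8.19% and 7.83% of all genes rose in the ratio. That gene was the epoxide hydrolase Ephx1, at 1.65 ± 0.17 (SE, log2) in M. In MM against CC 4 fell, where 12.2% of all genes fell in the ratio. None of the 4 was called in Cy5 alone. They were Cyp4a1 at -0.74, Ptgs1 at -0.40, Cyp4f6 at -0.38 and Lta4h at -0.23.

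Of 20 tested receptors and liver transcription factors, 1 rose and 1 fell in each comparison and none was called in Cy5 alone. Over all genes 8.19% rose and 12.2% fell in the ratio in M against C, and 7.83% rose and 12.2% fell in MM against CC. In Cy5 alone 3.26% and 2.86% of all genes were called. In M the cardiac and hepatic factor Gata4 rose by 0.27 ± 0.07 and the forkhead factor Foxa2 fell by 0.68 on the log2 scale, with Cy5 differences of -0.05 and -0.25. In MM the genes were Gata4 at 0.27 and Foxa3, another forkhead factor, at -0.53. Car (Nr1i3) was at 0.35 ± 0.29 in M and 0.30 in MM, Pxr (Nr1i2) at -0.12 ± 0.13 and -0.06, and Hnf4a at 0.03 ± 0.12 and -0.13, all without a call. These 3 receptors and factors, Foxa3, Por and the 4 eicosanoid genes that fell were named after their values were seen. Of 12 genes of the growth hormone axis, Jak2 rose by 0.33 and Foxa2 and Igf1 fell in M, with Igf1 at -0.36 ± 0.10, and Jak2 alone rose in MM. None of the 12 was called in Cy5 alone.

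Other sex-biased liver genes were not called in the ratio. None of 4 tested male-biased genes was called, with Hsd11b1 at -0.28 ± 0.12 and Cyp3a18 at -0.47 ± 0.34 in M. None of 5 female-biased genes was called in the ratio, with A1bg at 0.34 ± 0.15 and Sult2a1 at 0.29 ± 0.17. In Cy5 alone 1 of the 5 was called in each comparison, the female-biased P450 Cyp2a1, where 3.26% and 2.86% of all genes were called. In the 2 cross-fostering comparisons 0% of the 12072 genes were called in the ratio, so none of these lists could hold a called gene.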

How the data were processed

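Liver RNA pools (Cy5) and a common reference RNA (Cy3) were measured on 16 two-colour Agilent arrays, 4 per group. Per the file headers, the deposited scanner files hold median spot intensity and background intensity in each channel and a log10 ratio of Cy5 over Cy3, made with Feature Extraction 11.0.1.1. The deposited series table holds the authors' normalized log2 ratio, used only as an alternative. The analysis plan assumed mean signals, but the files hold medians, which were used.

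Intensities were background-corrected with normexp (offset 50) and normalized by loess within arrays, with control spots and outliers at weight 0, in R 4.3.3 with limma 3.58.1 and the packages jsonlite 2.0.0 and data.table (1.17.8). Each channel alone was also scaled by Aquantile between arrays. Probes were kept if 3 or more of the 4 arrays of any group had Cy5 well above background, and the brightest probe stood for a gene. A mean per group was fitted over all 16 arrays with lmFit and eBayes (12 residual degrees of freedom), two-sided, and p-values were adjusted by Benjamini-Hochberg over 12072 genes, with 0.05 as the threshold. Intervals are 95% confidence intervals. Precision is limited by the number of arrays.

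The members and gene lists were chosen with earlier results of these data known. All members were named, with the 5 genes most like Cyp2c7 and Cyp2c11 and up to 3 genes of each list with the smallest p between M and C. Correlations of members used 100000 permutations within groups. Promoters were read with Python 3.11.15, pandas 2.3.3 and Biopython 1.88, and plots drawn with matplotlib 3.10.9. Alternatives changed the measure, ratio, normalization, offset, filter, probe choice, array rows and arrays. CC and MM arrays share the numbers 1 to 4 in the labels, and nothing in the labels ties same-numbered pools to each other. No column of per-sample values was left unmapped. The scripts were tested on simulated data.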

Additional observations from a re-analysis of the deposited data

Results flagged for a closer look

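The groups were tested for an array that stood far from the other 3 of its group, in the ratio and in Cy5 alone, which gave 48 group tests of which 4 were positive. Chance alone flags about 1 in 20 groups. Array C 10 stood low in Cyp2c7, with a log2 ratio of 2.61 against 3.73 to 3.92 on the other C arrays, and a log2 Cy5 level of 9.05 against 10.24 to 10.47. Without it the M minus C ratio difference of Cyp2c7 was 2.04 and still called. Array C 12 stood high in Cyp2c12, with a log2 ratio of 6.60 against 5.12 to 5.33, and a log2 Cy5 level of 11.76 against 10.28 to 10.51. Without it the M minus C difference of Cyp2c12 was 0.99, not called.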

How the results depend on the processing

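Cyp2c7 was called higher under all 13 alternatives for M against C, at 1.45 to 3.92, and all 15 for MM against CC, at 2.14 to 3.75, and with each array left out in turn, at 2.04 to 2.48 and 2.60 to 2.95. The ratio of Cyp2c11 was called with each array left out, at 0.96 to 1.24 and 0.80 to 1.1, and lost its call on the arrays of row 1 only. In Cy5 alone its call was lost in either row, at 1.00 and 0.89 for M against C and 0.74 and 0.78 for MM against CC. The count of called members was 1 and not 2, in both comparisons, on the arrays of row 1 only and with probes well above background on all 16 arrays, a filter that removes Cyp2c11. With the replicate number as a block the count for MM against CC was 2 and Cyp2c7 was at 2.72, and no call changed. Same-numbered CC and MM arrays had deviations correlated at 0.34, 0.057, 0.19 and 0.11. CC 1 and CC 3 correlated best with their own number, and CC 2 and CC 4 with other numbers. Arrays numbered 1 and 2 lay in row 1 and those numbered 3 and 4 in row 2. The number and the row therefore go together here, and the labels do not say whether same-numbered pools are related.

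Of the alternative values of single genes, 606 kept their direction and call, 68 had the other sign, 12 lost and 2 gained a call. Apart from the scanner value of Cyp2c6v1 given first, no value that changed sign was called, and the causes were not tested. With the scanner log ratio, Cyp2c6v1 was at -0.91 for M minus C and -0.46 for MM minus CC, Cyp2c11 at -0.27 for CC minus C, 0.062 for MM minus M and 0.33 for the interaction, Cyp2c12 at -0.0040 for CC minus C and 0.059 for MM minus M, and for M minus C Cyp2c22 was at 0.092 and Cyp2c23 at -0.0086. With the series table, Cyp2c11 was at -0.012 for CC minus C and Cyp2c6v1 at -0.27 for M minus C, where an offset of 16 gave -0.26. With median centring in place of loess, Cyp2c11 was at -0.080 for CC minus C and 0.036 for the interaction, Cyp2c12 at -0.0044 for MM minus CC, Cyp2c22 at 0.075 for M minus C, Cyp2c23 at -0.071 for M minus C, -0.074 for MM minus CC and -0.049 for MM minus M, and Cyp2c6v1 at -0.048 for M minus C and -0.035 for MM minus M. In Cy5 alone, Cyp2c23 was at 0.072 for CC minus C, -0.012 for M minus C and -0.025 for MM minus CC, Cyp2c6v1 at -0.087 for MM minus M and Cyp2c7 at -0.17 for the interaction. On the arrays of row 1, Cyp2c11 was at 0.15 for MM minus M, Cyp2c12 at -0.27 for MM minus CC, and for M minus C Cyp2c22 was at 0.13 and Cyp2c23 at -0.040. On the arrays of row 2, Cyp2c11 was at -0.30 for CC minus C, Cyp2c23 at 0.20 for CC minus C, -0.17 for MM minus CC and -0.080 for MM minus M, and Cyp2c6v1 at -0.094 for MM minus CC, -0.15 for MM minus M and -0.13 for the interaction. Without CC 1 and CC 2, an alternative chosen after seeing the data, Cyp2c11 was at -0.058 and Cyp2c23 at 0.15 for CC minus C, and Cyp2c23 at -0.080 for MM minus CC.

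With each array left out in turn, the ranges that crossed 0 were -0.080 to 0.16 (CC minus C), -0.29 to 0.019 (MM minus M) and -0.30 to 0.0088 (interaction) for Cyp2c11, and -0.21 to 0.43 (MM minus CC) and -0.41 to 0.24 (MM minus M) for Cyp2c12. They were -0.22 to 0.089 for M minus C in Cyp2c22, and -0.17 to 0.10 (CC minus C), -0.038 to 0.14 (M minus C), -0.033 to 0.24 (MM minus CC) and -0.055 to 0.12 (MM minus M) in Cyp2c23. For Cyp2c6v1 they were -0.056 to 0.083 (M minus C) and -0.074 to 0.21 (MM minus M). Cyp2c11 and Cyp2c13 were each well above background in Cy5 on 1 of 4 C and 1 of 4 CC arrays, so their levels there are close to the limit of detection.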
